A study of Homo sapiens with 10 samples.

Results

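The GADD45 family consists of GADD45A (ENSG00000116717), GADD45B (ENSG00000099860) and GADD45G (ENSG00000130222), and it was followed through RNA-seq of C33A cells, a human cervical carcinoma cell line described as deficient in the SWI/SNF ATPases BRG1 and BRM. The 3 genes were matched by identifier among 63152 gene identifiers of the expression tables. Splicing was followed in every listed exon event whose middle exon lies in one of these genes, which gave 3 of 3102 distinct events and 2 of 2969 distinct middle exons. All 3 events and both exons belong to GADD45A.

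The study asked how the ATPases affect splicing and whether their ATPase activity is needed. The 10 libraries of polyadenylated RNA were made 48 h after transient transfection, with 2 replicates in each of 5 groups. Control cells received the empty vector pOPRSVI. BRG1-wt cells received pBJ5-BRG1 and BRG1-mut cells received pBJ5-BRG1-K798R, which encodes BRG1 without ATPase activity. BRM-wt cells received pCG-hBrm and BRM-mut cells received pCG-hBrm-K798R, the corresponding form of BRM. The ATPase plasmids and the control plasmid have different backbones, and the libraries hold all cells of a culture, transfected or not. The labels do not say whether the replicates were separate cultures.

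GADD45 proteins are small, acidic proteins without known enzyme activity that are made when cells meet DNA damage or other stress. They act by binding other proteins. They activate the kinase MAP3K4 at the top of the p38 and JNK cascades, they bind CDK1 with cyclin B1 and PCNA, and they take part in DNA repair and DNA demethylation with the glycosylase TDG. GADD45A is the family member best known as a target of p53 after DNA damage, GADD45B is induced by NF-kB and TGF-beta signalling, and GADD45G is induced by cytokines in differentiating cells.

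The genes share one layout of 4 coding exons on the forward strand of GRCh37. GADD45A lies on chromosome 1 from 68150884 to 68154017, GADD45B on chromosome 19 from 2476120 to 2478257, and GADD45G on chromosome 9 from 92219927 to 92221470. In each of them exon 2 is a coding exon of 102 bases, a multiple of 3, so that leaving it out keeps the reading frame. The middle exons are shown because exon 2 of GADD45A had a listed event in the most tables (5 of 8), and its counterparts in GADD45B and GADD45G were listed in no table. Capitals mark the exon and lower case the 20 intron bases on each side, from the GRCh37 genome sequence.
GADD45A exon 2, chr1:68151688-68151829, forward strand: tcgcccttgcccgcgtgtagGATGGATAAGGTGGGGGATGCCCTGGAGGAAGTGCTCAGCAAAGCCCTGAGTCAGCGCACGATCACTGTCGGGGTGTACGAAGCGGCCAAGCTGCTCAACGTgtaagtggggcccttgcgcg
GADD45B exon 2, chr19:2476507-2476648, forward strand: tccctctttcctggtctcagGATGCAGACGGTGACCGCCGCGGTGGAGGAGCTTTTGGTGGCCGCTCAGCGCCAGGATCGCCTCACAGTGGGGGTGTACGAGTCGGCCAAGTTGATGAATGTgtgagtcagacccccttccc
GADD45G exon 2, chr9:92220327-92220468, forward strand: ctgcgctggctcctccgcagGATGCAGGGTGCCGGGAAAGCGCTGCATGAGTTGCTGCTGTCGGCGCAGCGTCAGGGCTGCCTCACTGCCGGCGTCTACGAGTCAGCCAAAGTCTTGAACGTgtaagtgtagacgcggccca
GADD45A exon 3, the other listed exon, chr1:68152013-68152290, forward strand: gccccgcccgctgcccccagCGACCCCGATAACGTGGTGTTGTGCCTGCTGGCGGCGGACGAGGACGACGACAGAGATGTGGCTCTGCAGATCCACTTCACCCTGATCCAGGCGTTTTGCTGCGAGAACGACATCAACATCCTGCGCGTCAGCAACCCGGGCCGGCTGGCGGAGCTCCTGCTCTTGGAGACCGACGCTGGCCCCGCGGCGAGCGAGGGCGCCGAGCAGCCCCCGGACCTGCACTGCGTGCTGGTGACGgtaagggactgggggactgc

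Aligned base by base with no gaps, exon 2 of GADD45A was identical to that of GADD45B at 62 of 102 bases (60.8%) and to that of GADD45G at 62 of 102 bases (60.8%). Exon 2 of GADD45B and GADD45G shared 66 of 102 bases (64.7%). Exon 2 of each gene is preceded by AG. It is followed by gtaagt in GADD45A and GADD45G and by gtgagt in GADD45B. Of the 18 bases before that AG, 13 were C or T in GADD45A, 16 in GADD45B and 13 in GADD45G, which is the stretch where introns carry a run of pyrimidines. Exon 3 of GADD45A has 238 bases, is not a multiple of 3, and has 14 of 18 C or T bases before its AG.

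The annotation holds coding transcripts of GADD45A for each way in which exons 2 and 3 can be used. GADD45A-202 joins all 4 exons and has 165 codons. GADD45A-201 joins exon 1 to exons 3 and 4, lacks the 102 bases of exon 2 and has 131 codons. GADD45A-207 joins exons 1, 2 and 4 and has 60 codons, since the loss of exon 3 shifts the reading frame in exon 4. GADD45A-206 joins exon 1 to exon 4 and has 26 codons. The fifth coding transcript, GADD45A-205, uses a later start of exon 3 and has 147 codons. The first listed event asks about exon 2 between exons 1 and 4, and so sets GADD45A-207 against GADD45A-206. The second asks about exon 3 between exons 2 and 4, which sets GADD45A-202 against GADD45A-207. The third asks about exon 3 between exons 1 and 4, which sets GADD45A-201 against GADD45A-206. These pairs are matched by their exons alone. Reads in shared exons can also come from coding transcripts outside a pair, so an event does not measure the transcripts of its pair alone. Exon 2 between exons 1 and 3, which would set GADD45A-202 against GADD45A-201, was listed in no table.

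**Figure D1:**
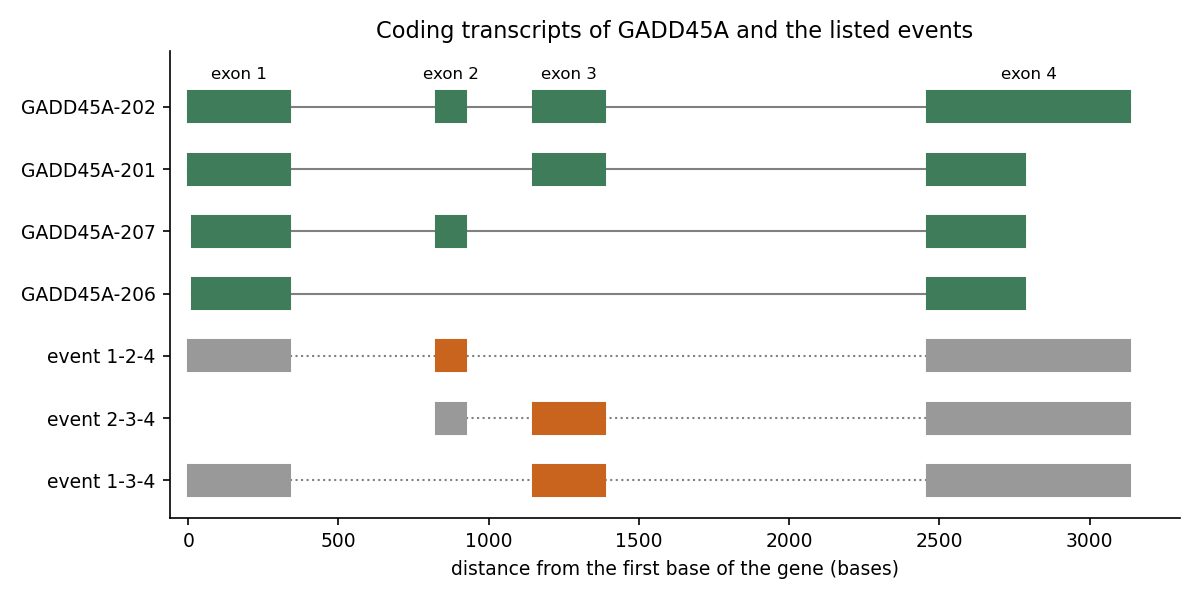
Layout of GADD45A by distance from the first base of the gene in bases. Boxes in the upper rows are the exons of the coding transcripts GADD45A-202, GADD45A-201, GADD45A-207 and GADD45A-206 (GADD45A-205, with its later start of exon 3, is not drawn), and the lower rows are the listed events, with the middle exon in orange and the flanking exons in grey. Exon 2 is flanked by exons 1 and 4 in its event, and exon 3 occurs with exon 2 or with exon 1 on its left.

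Inclusion of the exons was measured as PSI, the fraction of the transcripts of an event that include its middle exon, which runs from 0 to 1. Each of the 8 splicing tables sets 1 ATPase library against the control that carries its replicate number and lists only events with a MISO Bayes factor above 10. A listed change was therefore chosen because the same libraries showed it. GADD45A exon 2 is also an exon that the study picked from these tables. For both reasons the PSI values are described with no test. With 2 libraries against 2 the smallest two-sided exact permutation p is 0.333. Reads per event are not listed, and the depth behind a PSI is unknown. The 2 replicates of BRM-wt stood apart: of 283 exons listed in both, 268 changed in opposite directions, against 27 of 57 in BRG1-wt, 11 of 143 in BRG1-mut and 21 of 49 in BRM-mut.

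GADD45A exon 2 was included more in both BRG1-mut libraries than in either control library, and so was exon 3 between exons 2 and 4. In BRM-wt the replicates went in opposite directions for both exons. BRG1-wt had 1 listed change, in exon 2, and BRM-mut had none.

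Exon 2 between exons 1 and 4 had a PSI of 0.08 in control replicate 1 and 0.19 in control replicate 2. This PSI belongs to the event between exons 1 and 4 alone. It is not the share of all GADD45A transcripts that include exon 2. That share was not measured here, since exon 2 was listed with no other neighbours. The paper describes the form that keeps this exon as the most abundant in these cells. In BRG1-mut the PSI of the event was 0.34 in replicate 1 and 0.42 in replicate 2. Both BRG1-mut libraries lay above both controls, and the lower of them exceeded the higher control by 0.15. The mean was 0.135 ± 0.0778 (SD, n = 2) in control and 0.38 ± 0.0566 (SD, n = 2) in BRG1-mut, and the mean change between libraries of the same number was 0.245 ± 0.0212 (SD, n = 2). In BRG1-wt replicate 1 the PSI was 0.17, which was 0.09 above the control of its own number but below control replicate 2, and the event was not listed for BRG1-wt replicate 2. The 2 controls differed from each other by 0.11, so the BRG1-wt value lay within the spread of the controls. In BRM-wt the PSI was 0.49 in replicate 1 and 0.04 in replicate 2, the highest and the lowest value of all libraries with a listed PSI for this event. The mean change in BRM-wt, 0.13 ± 0.396 (SD, n = 2), was smaller than its spread.

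Exon 3 between exons 2 and 4 had a PSI of 0.17 and 0.27 in control replicates 1 and 2, and of 0.38 and 0.52 in BRG1-mut replicates 1 and 2. The BRG1-mut libraries again lay above both controls, by at least 0.11, with a mean change of 0.23 ± 0.0283 (SD, n = 2). In BRM-wt the PSI was 0.49 in replicate 1 and 0.12 in replicate 2, on either side of the controls, and the mean change was 0.085 ± 0.332 (SD, n = 2). The event was listed in neither BRG1-wt replicate.

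Exon 3 between exons 1 and 4 had a PSI of 0.22 and 0.28 in control replicates 1 and 2. It was listed for BRG1-mut in replicate 1 only, with a PSI of 0.35, which is above both controls by at least 0.07. In BRM-wt it was 0.43 in replicate 1 and 0.16 in replicate 2, with a mean change of 0.045 ± 0.233 (SD, n = 2). The 3 events share exons and reads, so their agreement is not independent evidence.

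**Figure D2:**
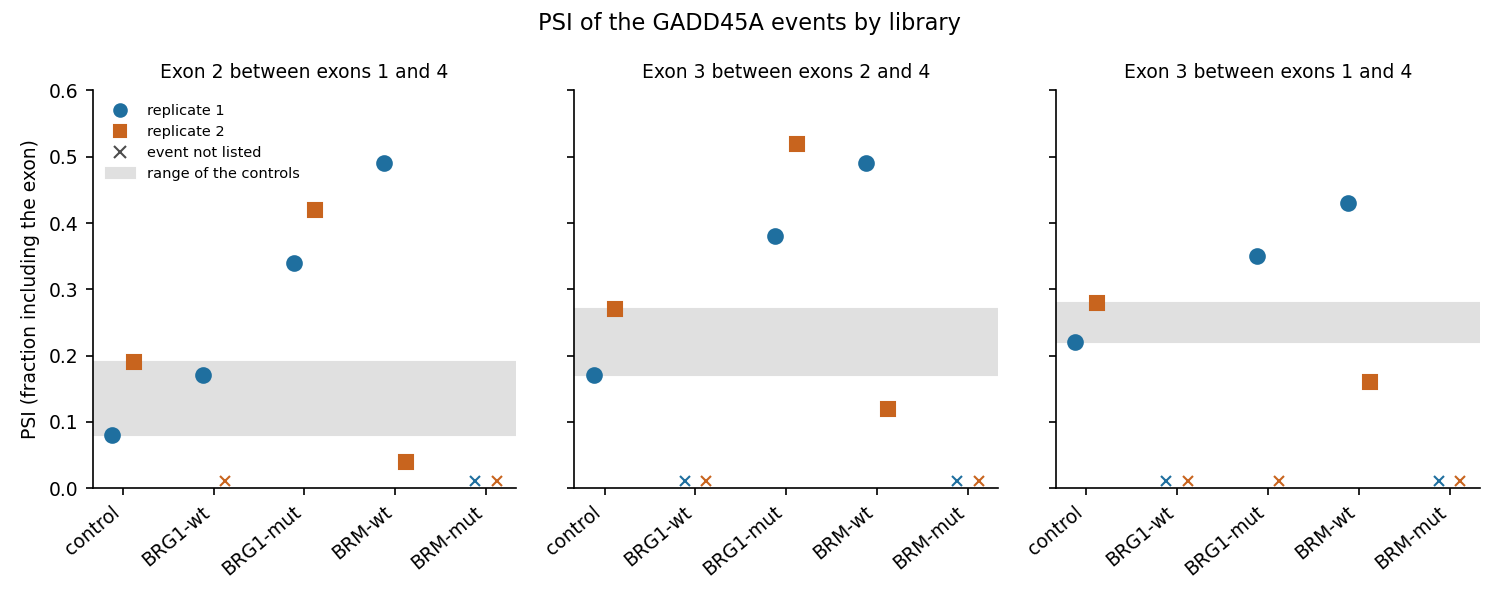
PSI of the listed GADD45A events, with 1 panel for each event, the group on the horizontal axis and PSI as a fraction on the vertical axis. Points are single libraries (circles replicate 1, squares replicate 2), grey bands span the control libraries, and crosses drawn at the foot of a panel mark libraries for which the event was not listed and have no PSI. The BRG1-mut points lie above the grey band in each panel, and the BRM-wt points lie on either side of it.

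Both GADD45A exons were among the exons listed in both BRG1-mut replicates with a higher PSI in both. These were 93 of the 1165 exons listed for BRG1-mut (7.98%), and 93 of the 143 listed in both of its replicates. Most exons that could show this direction in both replicates thus did so. Both GADD45A exons were also among the exons listed in both BRM-wt replicates with opposite directions, which were 268 of 1461 (18.3%). The opposite directions in BRM-wt were thus shared with most exons that could be compared between those replicates, and the part of the libraries themselves in the GADD45A values was not tested. The event of exon 2 was listed in 5 of the 8 splicing tables, and 109 of the 3102 events (3.51%) were listed in 5 or more. The events of exon 3 were listed in 4 tables (between exons 2 and 4) and in 3 tables (between exons 1 and 4), and 17.5% of all events were listed in 3 or more. Over the 621 events with a PSI in both control libraries, the controls differed by a median of 0.13, and 59.6% of these events differed by at least the 0.11 of GADD45A exon 2. These are events listed in tables of both replicate numbers. They are a selected set and do not give the usual difference between the controls.

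Under the rules of the study's methods, an exon counts as affected in a group if it is listed and does not change in opposite directions between replicates or between groups. Exon 2 of GADD45A counted as affected in BRG1-wt and BRG1-mut, and exon 3 in BRG1-mut. These rules keep most listed exons, 808 of 947 in BRG1-wt and 992 of 1165 in BRG1-mut. The 1 exon of BRG1-wt was lost when both replicates or a PSI change of at least 0.2 were required. The 2 exons of BRG1-mut were lost without replicate 1, although both were higher in BRG1-mut replicate 2 than in its control. They were lost to the rule on groups, since BRM-wt replicate 2, then alone in its group, was lower for both. Neither exon counted in BRM-wt, where the replicates disagreed. If an exon was also left out wherever any library of another group was listed in the opposite direction, an alternative chosen after seeing the data, BRM-wt replicate 2 removed both exons from BRG1-wt and BRG1-mut, and the counts became 0.

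The GADD45A exons lie in a stretch rich in G and C. Exon 2 had 59.8% GC and exon 3 had 67.2%, against a median of 50.4% over the 2969 listed exons. The introns on both sides of exon 2 had 70.4% and 76.7% GC, while the long intron between exons 3 and 4, of 1073 bases, had 42.0% and exon 4 had 33.7%. The 500 bases on each side of exon 2 had 70.6% GC on average, higher than in 99.5% of the listed exons, and those around exon 3 had 60.7%, higher than in 92.6%. In GADD45B and GADD45G exon 2 had 62.7% GC in each, and the introns beside it had between 64.1% and 72.4%.

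Levels of the genes were read from the base mean, the authors' mean over 4 libraries of counts divided by size factors. Each of the 4 expression tables holds 2 libraries of an ATPase group and the same 2 control libraries, and it gives 1 base mean for a gene with no value per library. For comparison the tables were scaled to a common median ratio. Because every base mean holds the same controls, the ratio between tables understates the ratio between the groups, while the difference between group means is exactly 2 times the difference in base means, apart from the scaling. The base means come with no error of their own, the authors' standard errors and tests were not used, and no test was made. Fewer cells with a transcript and less of it per cell cannot be told apart in these bulk samples.

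The tables are alike in size, with base means that sum to between 36461843 and 38730372. The transfected genes were used to check which expression tables belong to BRG1 and which to BRM. They cannot tell wild type from mutant, and they check neither the replicate numbers nor the splicing tables. SMARCA4 encodes BRG1 and had a scaled base mean of 25708 in BRG1-wt and 30468 in BRG1-mut, against 3978 in BRM-wt and 2963 in BRM-mut. SMARCA2, which encodes BRM, had 61419 in BRM-wt and 72817 in BRM-mut, against 12.6 in BRG1-wt and 9.53 in BRG1-mut. SMARCA4 RNA was thus present in libraries that had received no BRG1 plasmid, while SMARCA2 RNA was near 0 in those without a BRM plasmid. Of the epithelial markers, KRT18 lay between 254 and 693 and KRT8 between 87.5 and 454, both higher in the tables of the wild-type ATPases than in those of the mutants, while EPCAM (23.3 to 30.9) and CDH1 (3.11 to 6.25) were low. Of 5 markers of other cell types, COL1A1 (18.4 to 36.4), DCN (7.27 to 12.0) and ALB (6.31 to 8.94) were low, the leukocyte gene PTPRC lay between 1562 and 1783, and PECAM1 had no match among the gene names.

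GADD45A was the main family member at the RNA level and hardly differed between tables. GADD45B was lower and differed more, with its highest base mean in BRG1-mut and its lowest in BRM-mut. GADD45G was at or near 0.

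GADD45A had a base mean of 2197 in the table of BRG1-wt, 2159 in BRG1-mut, 2147 in BRM-wt and 2106 in BRM-mut, as deposited. After scaling these were 2189, 2206, 2210 and 2028, so that the highest lay 8.97% above the lowest. Per kb of exon, scaled base means of GADD45A were between 1054 and 1148. BRG1-wt, BRG1-mut and BRM-wt differed by about 1% or less and took another order without scaling, while BRM-mut was the lowest with and without scaling.

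GADD45B had a base mean of 266.0 in the table of BRG1-wt, 317.8 in BRG1-mut, 266.4 in BRM-wt and 192.7 in BRM-mut. After scaling these were 265.1, 324.7, 274.3 and 185.6, with the highest 74.9% above the lowest. The tables of BRG1-wt and BRM-wt lay side by side between those of the mutants. Per kb of exon the scaled base mean of GADD45B was between 86.8 and 152, and the level of GADD45A per kb was 7.55 to 12.1 times that of GADD45B in the same table.

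GADD45G was listed at 0 in the tables of BRG1-mut, BRM-mut and BRM-wt, and so at 0 in 8 libraries, the controls included. In the table of BRG1-wt its base mean was 0.90, which amounts to 3.6 normalised counts in the 2 BRG1-wt libraries together. A count of 0 in a single library allows an expected count of up to about 3 there. No value per library is given, so the 3.6 counts may come from a single BRG1-wt library. A value this close to 0 is not read as a difference, and none was tested.

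**Figure D3:**
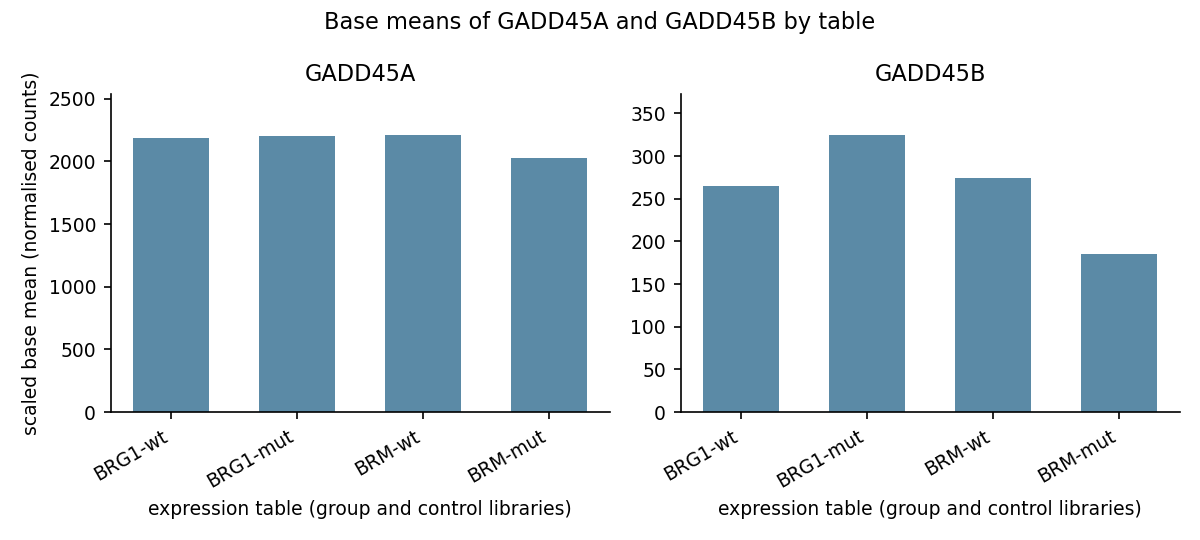
Scaled base means (normalised counts) of GADD45A and GADD45B in the 4 expression tables, each bar a mean over 2 libraries of the group and the 2 control libraries, with no error available. The bars of GADD45A run from 2028 to 2210 and those of GADD45B from 185.6 in BRM-mut to 324.7 in BRG1-mut.

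Between the ATPase forms, 1.5-fold was passed by GADD45B in BRG1-mut against BRM-mut. Its base mean was 1.75-fold higher in the table of BRG1-mut than in that of BRM-mut, a difference of 278.1 normalised counts between the group means. Such a ratio was found for 11.0% of the 16077 genes compared in that direction, and for 0.199% in the other direction. In BRM-wt against BRM-mut the ratio of GADD45B was 1.48, just below the fold, and 1.503 when the tables were scaled over genes that reach 1000. The fold was passed by 3.80% of genes with BRM-wt higher and by 0.124% with BRM-mut higher. In BRG1-wt against BRG1-mut the ratio of GADD45B was 0.817, lower in BRG1-wt, and 1.65% of genes passed with BRG1-wt higher and 2.85% with BRG1-mut higher. In BRG1-wt against BRM-wt it was 0.966, and 0.264% and 0.123% of genes passed in the 2 directions. The ratios of GADD45A were 0.993, 1.09, 0.991 and 1.09 for BRG1-wt over BRG1-mut, BRM-wt over BRM-mut, BRG1-wt over BRM-wt and BRG1-mut over BRM-mut.

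From the lowest table, the mean of the 2 control libraries can have been at most 4057 normalised counts for GADD45A and 371.2 for GADD45B. The mean of the 2 BRG1-mut libraries was then at least 278.1 for GADD45B.

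Ratios between the tables followed the GC content of the exons of a gene across the genome. Over 11428 genes at or above a base mean of 100 in every table, Spearman's rho between GC content and the ratio was -0.663 for BRG1-wt over BRG1-mut, 0.665 for BRM-wt over BRM-mut, 0.492 for BRG1-wt over BRM-wt and 0.866 for BRG1-mut over BRM-mut. These are descriptions across genes, which share the same libraries. The exons of GADD45A have 57.8% GC, those of GADD45B 60.2% and those of GADD45G 65.6%. Genes of the same GC content as GADD45B had a median ratio of 1.51 between BRG1-mut and BRM-mut, and GADD45B exceeded them 1.16-fold. In BRM-wt against BRM-mut these genes had a median ratio of 1.18, and GADD45B lay 0.32 above them on the log2 scale, a larger excess than in 97.3% of genes. In BRG1-wt against BRG1-mut GADD45B had 0.817 and genes of like GC content 0.817. For BRG1-mut over BRM-mut, genes of the GC content of GADD45A had a median ratio of 1.32, and GADD45A had 0.822 times that, a value below which 2.32% of genes lay. What gives the tables this trend was not tested.

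**Figure D4:**
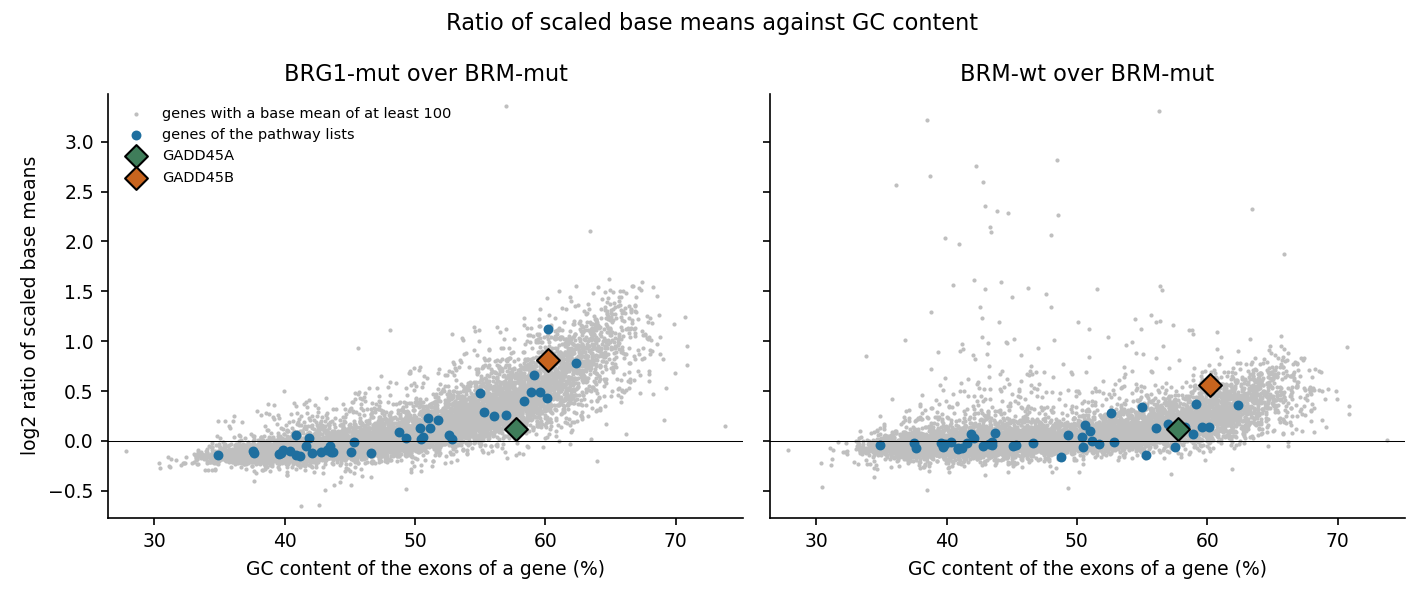
Log2 ratio of scaled base means against the GC content of the exons of a gene (%), for BRG1-mut over BRM-mut and for BRM-wt over BRM-mut, in genes that reach a base mean of 100 in every table. Grey points are all such genes, blue points those of the pathway lists, and diamonds GADD45A and GADD45B. In the panel of BRG1-mut over BRM-mut the points rise with GC content, GADD45B lies within the upper part of the cloud at 60.2% GC and GADD45A at its lower edge at 57.8%.

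Among the 11643 genes that reached a base mean of 100 in every table, the genes whose scaled base means were most like those of GADD45A over the 4 tables were MORC2, ULBP3 and CBFA2T2. Their distance from it, over log2 values centred on the mean of the 4 tables, was 0.0109 to 0.0168, against a median of 0.178 over all genes, and 1339 genes lay within 0.1. The genes most like GADD45B were PLEKHG5, EHD1 and CCDC22, with distances of 0.0273 to 0.0476, against a median of 0.60, and 32 genes lay within 0.1. EHD1, for example, had scaled base means of 394 in BRG1-wt, 486 in BRG1-mut, 410 in BRM-wt and 286 in BRM-mut.

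Partners, regulators and fellow stress genes of the family were followed in 5 lists with 48 genes in all, of which 47 passed the minimum base mean of 10 in each pair of tables. GDF15, a stress-induced growth factor, was the exception, with scaled base means of 2.15 to 11.1. The median ratio over these genes was 0.99, 0.989, 1.00 and 1.02 in the 4 comparisons, and over all genes it was 0.994, 1.01, 1.00 and 1.01. In BRG1-wt against BRM-wt none of the 47 passed 1.5-fold.

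Of the 8 genes of the stress kinase cascade, 2 passed, both with a higher base mean in BRG1-mut than in BRM-mut, a ratio that 11.0% of all genes passed. MAP2K3, a kinase that activates p38, had scaled base means of 1366 in BRG1-wt, 1551 in BRG1-mut, 1273 in BRM-wt and 983 in BRM-mut, a ratio of 1.58 between the mutants. In the same order of tables, MAP2K7, a kinase that activates JNK, had 410, 574, 428 and 334, a ratio of 1.72. Their exons had 59.1% and 62.4% GC, and genes of like GC content had median ratios of 1.42 and 1.70. MAP3K4, the kinase that GADD45 proteins bind, had 1604, 1568, 1628 and 1691 and passed in none of the comparisons.

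Of the 5 cell cycle and replication partners, 2 passed in at least 1 comparison, where the share of all genes past the fold in the same direction was 2.85% (BRG1-mut over BRG1-wt), 3.80% (BRM-wt over BRM-mut) and 11.0% (BRG1-mut over BRM-mut). GADD45GIP1, whose product was named for binding GADD45 proteins and is part of the mitochondrial ribosome, had scaled base means of 539, 843, 550.1 and 388. It was 1.56-fold higher in BRG1-mut than in BRG1-wt and 2.17-fold higher in BRG1-mut than in BRM-mut, where genes of like GC content had a median ratio of 1.51. CDKN1A, the CDK inhibitor p21, had 107, 78.3, 99.2 and 65.5, and was 1.51-fold higher in BRM-wt than in BRM-mut, where genes of like GC content had a median ratio of 1.11. The other 3, CDK1, CCNB1 and PCNA, passed in none.

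None of the 9 DNA demethylation and repair partners and none of the 14 transcription factors passed in any comparison. Of the 11 measured genes among the other growth arrest, DNA damage and p53 response genes, BBC3, which encodes the p53 target PUMA that promotes apoptosis, passed in 2 comparisons. Its scaled base means were low, at 32.9, 48.8, 30.3 and 18.6, with a ratio of 1.63 in BRM-wt over BRM-mut and 2.62 in BRG1-mut over BRM-mut, against medians of 1.36 and 1.88 over genes of like GC content. The lists thus held 1, 2, 0 and 4 genes past the fold in the comparisons of BRG1-wt with BRG1-mut, BRM-wt with BRM-mut, BRG1-wt with BRM-wt and BRG1-mut with BRM-mut. In the directions concerned, all genes passed in 2.85% (BRG1-mut over BRG1-wt), 3.80% (BRM-wt over BRM-mut) and 11.0% (BRG1-mut over BRM-mut) of cases, which is near 1, 2 and 4 of 47.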

How the data were processed

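Reads were mapped by the authors with TopHat2 2.0.4 to GRCh37, and counted on genes with HTSeq 0.6.1, duplicates included. The deposited PSI is a fraction that the authors estimated with MISO for each library, rounded to 2 decimals, and only events with a Bayes factor above 10 are listed. The deposited base mean, a score of gene level, is the authors' DESeq2 mean over 4 libraries of counts divided by size factors. The other deposited columns hold the authors' own comparisons (fold changes, standard errors, statistics and p-values, Bayes factors, log ratios and direction flags) and were not used, and a second copy of the BRG1-wt table was left out. Whether the gene counting used strand is not given in the sources used here.

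The members and the 5 gene lists were chosen with earlier results of these data known. The named genes were the members, the ATPase genes, from each list up to 3 genes past the fold in each direction, and the 3 genes of most like pattern for each member. PSI libraries were matched by the group and replicate number in the table names. Exons were counted as affected when listed in either replicate with one direction in replicates and groups, and forms shorter than 50% of the longest one with a common end were dropped. Base means were scaled by the median ratio over genes with at least 100 in every table. Ratios were taken for genes with at least 10 in both tables, with no pseudocount. The GC trend is the median over 50 bins of genes by exonic GC content from the GENCODE annotation on GRCh37. Of the 63152 identifiers, 55139 matched that annotation. The paper states a nominal sequencing depth, but the deposited tables give no library totals, so the depth reached in each library is unknown.

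Alternatives were single replicates, single event forms, both replicates required, a PSI change of at least 0.2, opposite groups kept, other scalings, pseudocounts of 1 and 10, folds of 1.25 and 2, a minimum base mean of 100 or none, and subtraction of the GC trend. On simulated data for BRG1-mut and BRM-mut with 15491 genes, a ratio of at least 1.5 was found for 100% of 200 genes with a 4-fold change between the groups, and for 13 unchanged genes in either direction. This run held no GC trend, and its changed genes had a median ratio of 2.488, above the 1.75 of GADD45B. It checks the calculation only, and gives no rate of false calls for the real ratios, which follow GC content. Python 3.11.15, pandas 2.3.3, numpy 2.4.6 and matplotlib 3.10.9 were used. Protein sequences were not used here.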

Additional observations from a re-analysis of the deposited data

How the results depend on the processing

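No paired analysis was possible because no result comes from a test. The PSI changes are already differences between libraries of the same replicate number, and the base means have no value per library. Leaving out 1 replicate gave PSI changes in BRG1-mut of 0.23 to 0.26 for exon 2 and 0.21 to 0.25 for exon 3 between exons 2 and 4. In BRM-wt they ran from -0.15 to 0.41 for exon 2, from -0.15 to 0.32 for exon 3 between exons 2 and 4, and from -0.12 to 0.21 for exon 3 between exons 1 and 4, and the sign turned without replicate 1. Changes seen in 1 library (exon 2 in BRG1-wt, exon 3 between exons 1 and 4 in BRG1-mut) have no value without it. Affected GADD45A exons numbered 1 in BRG1-wt, 0 to 1 with a replicate left out, and 0 with both replicates required or a PSI change of at least 0.2. In BRG1-mut they numbered 2, and 0 to 2 with a replicate left out. They numbered 0 without replicate 1, when the listings of BRM-wt replicate 2 went the other way. In BRM-wt they numbered 0, 0 to 2 with a replicate left out, and 2 with a PSI change of at least 0.2. That minimum removed the listings of BRM-wt replicate 2, with changes of -0.12 and -0.15, so its disagreement with replicate 1 no longer counted. Leaving out exons with any opposite listing in another group, chosen after seeing the data, gave 0 in BRG1-wt and in BRG1-mut.

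Base mean ratios of GADD45A and GADD45B moved by less than 0.1 on the log2 scale in 40 of 40 alternatives of scaling or pseudocount. A change of scaling moves the ratios of all genes in a comparison alike, and the pseudocounts are small beside these base means. The 40 alternatives thus say little about these genes in particular. With the GC trend subtracted, the ratio of GADD45A turned from 0.993 to 1.12 for BRG1-wt over BRG1-mut, from 1.09 to 0.977 for BRM-wt over BRM-mut, and from 1.09 to 0.822 for BRG1-mut over BRM-mut. That of GADD45B became 0.999, 1.2505 and 1.16 in the same comparisons. List genes past the fold between BRG1-wt and BRG1-mut numbered 1, and 2 with no filter, 5 at the lower fold and 0 at a fold of 2. After the GC trend they numbered 1, but the gene was another. GADD45GIP1 then had a ratio of 0.781 and no longer passed, while CDKN1A passed with 1.54. Between BRM-wt and BRM-mut the list genes past the fold numbered 2, and 0 at a base mean of at least 100. They numbered 6 at the lower fold, 0 at a fold of 2 and 0 after the GC trend. Between BRG1-mut and BRM-mut they numbered 4, and 10 at the lower fold, 2 at a fold of 2 and 0 after the GC trend. The shares of all genes under these other settings were not worked out, so the counts are not read as results about the lists.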

Other observations

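Of the 48 genes of the lists, 6 had a listed splicing event, and APEX1 and TDG had one in more than 1 table. Both were picked out after their values were seen. Of all 3102 events, 1967 were listed in 1 table and the rest in more. The share of all genes with a listed event was not worked out, so these counts are not read as a trait of the lists. APEX1 encodes the main endonuclease at sites of base loss in DNA, and its listed exon lies on chromosome 14 from 20923737 to 20923932. Its PSI was 0.55 and 0.81 in control replicates 1 and 2, and 0.84 and 0.97 in BRG1-mut, above both controls. It was 0.78 in BRG1-wt replicate 1, the one listed there. In BRM-wt it was 0.93 in replicate 1 and 0.56 in replicate 2, on either side of the control of the same number, which was also the order of the GADD45A exons. TDG encodes the glycosylase that removes oxidised methylcytosine, and its listed exon lies on chromosome 12 from 104370696 to 104370838. Its PSI rose from 0.32 to 0.76 in BRM-wt replicate 1 and fell from 0.81 to 0.28 in replicate 2. Opposite directions, as in APEX1 and TDG, were found for 268 of the 283 exons listed in both BRM-wt replicates. The controls differed by more for TDG than for GADD45A exon 2, and no test was made on these listed values.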
